A study of Arabidopsis thaliana with 10 samples.

Results

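Antisense long noncoding RNAs (lncRNAs) are transcripts with little or no coding potential that are read from the strand opposite another gene. The 235 loci described here are those that the authors predicted in Arabidopsis thaliana and classed by position as antisense, out of 1362 lncRNA loci with expression values (978 predicted and 384 annotated). They were taken from the 256 predicted antisense loci by dropping 21: those listed with a binding site of the transcription factors PIF4 or PIF5, those listed as matching a stress-related RNA structure, and 2 more by name. Of the 235, 51 belong to level 1 and 184 to level 2 of the authors' prediction.

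Such transcripts are known to act in several ways in plants. Some change the chromatin or the transcription of the gene they overlap, as the cold-induced antisense transcripts of the flowering repressor gene FLC do. Others pair with the sense RNA and give small interfering RNAs, and many have no known role. A lncRNA of this kind is usually studied together with the gene opposite, so that gene is named beside each locus below.

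The libraries came from wild-type Col-0 seedlings aged 12 days. The control was untreated and taken at 3 h. Drought was imitated with 300 mM mannitol, which lowers the water potential of the medium, and salt stress was given as 200 mM NaCl. Heat was 37 °C and cold was 4 °C, and each stress was taken at 3 h and 12 h. Each condition has 1 library and no replicate, so no difference was tested, and every interval given is a 95% interval that covers counting error only. There is no control at 12 h, so time and stress cannot be told apart in the 12 h libraries, and all 8 comparisons with the control share the same library. All 9 libraries hold RNA left after polyadenylated RNA and ribosomal RNA were removed, and all 235 loci carry "NO" in the authors' polyadenylation class. A further sample, total RNA of mixed tissues, was not analysed here. The tables hold lncRNA loci alone, so no marker of a seedling tissue could be looked up. In whole seedlings, fewer cells of a type and less RNA per cell cannot be told apart.

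The sequences of 6 loci that lead the stress comparisons are shown because they let the relation to the gene on the other strand be seen directly. Capitals mark bases opposite coding sequence of that gene, and lower case marks bases opposite its introns. All are plus-strand sequence of the RefSeq assembly TAIR10.1 read by the deposited coordinates. level2_lnc-392 lies at chr4:10057-10258 opposite AT4G00020, a BRCA2-like DNA repair gene. level2_lnc-48 lies at chr1:10070112-10070325 opposite the GDSL-like lipase gene AT1G28650, and level2_lnc-522 at chr5:6427697-6427968 opposite AT5G19150, a pfkB-like carbohydrate kinase gene. level1_lnc-266 lies at chr5:6055888-6056153 opposite SIP1;2, which belongs to the aquaporin-like family of membrane channels. level1_lnc-55 lies at chr1:22316248-22316453 opposite AT1G60590, a pectin lyase-like gene. The first 300 of the 303 bases of level1_lnc-319, at chr5:19289683-19289982 opposite TDT, were added after its values were seen.
level2_lnc-392: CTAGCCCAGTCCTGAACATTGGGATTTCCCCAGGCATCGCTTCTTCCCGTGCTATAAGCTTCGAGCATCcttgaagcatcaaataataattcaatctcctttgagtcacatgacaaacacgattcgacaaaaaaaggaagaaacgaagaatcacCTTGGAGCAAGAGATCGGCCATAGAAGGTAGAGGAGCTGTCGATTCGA
level2_lnc-48: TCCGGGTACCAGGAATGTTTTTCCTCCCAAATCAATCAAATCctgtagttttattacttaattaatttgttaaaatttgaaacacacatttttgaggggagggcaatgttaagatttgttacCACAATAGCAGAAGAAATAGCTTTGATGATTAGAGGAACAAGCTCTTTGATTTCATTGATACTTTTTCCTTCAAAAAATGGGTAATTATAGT
level2_lnc-522: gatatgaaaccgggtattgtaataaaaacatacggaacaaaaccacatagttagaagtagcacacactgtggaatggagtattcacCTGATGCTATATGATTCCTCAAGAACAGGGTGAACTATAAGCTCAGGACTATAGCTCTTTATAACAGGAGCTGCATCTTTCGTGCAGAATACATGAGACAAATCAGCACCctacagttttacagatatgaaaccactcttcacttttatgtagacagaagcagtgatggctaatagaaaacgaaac
level1_lnc-266: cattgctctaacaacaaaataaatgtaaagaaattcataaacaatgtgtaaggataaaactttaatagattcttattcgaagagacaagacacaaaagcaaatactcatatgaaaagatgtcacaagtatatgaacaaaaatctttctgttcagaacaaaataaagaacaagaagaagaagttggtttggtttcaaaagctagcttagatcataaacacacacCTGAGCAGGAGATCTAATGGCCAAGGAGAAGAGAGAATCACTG
level1_lnc-55: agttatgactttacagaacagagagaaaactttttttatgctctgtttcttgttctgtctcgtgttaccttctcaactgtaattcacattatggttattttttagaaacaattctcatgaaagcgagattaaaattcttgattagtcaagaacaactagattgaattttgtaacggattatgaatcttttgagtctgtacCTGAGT
level1_lnc-319: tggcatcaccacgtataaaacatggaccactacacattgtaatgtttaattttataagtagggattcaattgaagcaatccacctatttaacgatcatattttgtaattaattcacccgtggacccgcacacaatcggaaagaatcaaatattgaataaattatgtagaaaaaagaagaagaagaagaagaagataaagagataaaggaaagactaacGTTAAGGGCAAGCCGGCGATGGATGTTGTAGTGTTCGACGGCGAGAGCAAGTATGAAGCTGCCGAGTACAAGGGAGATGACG
In each of them coding and intron bases follow one another without a gap. level2_lnc-48 holds 134 bases opposite coding sequence, while level1_lnc-55 holds 6 at its very end.

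The same arrangement was common among the 235 loci. A coding gene of the annotation lay opposite 234 of them (232 different genes), and level2_lnc-20 had none. Of the 235, 223 lay wholly within the gene opposite, 8 ran past its start and 3 past its end. Exons of the loci covered 72193 bases, of which 39.9% were opposite coding sequence, 53.7% opposite introns and 5.26% opposite untranslated or other exon bases. Over the whole span of the genes opposite, coding sequence made up 44.8%, introns 38.2% and other exon bases 17%. At least 1 base opposite an intron was found in 222 loci, and 218 had bases opposite both coding sequence and an intron. Another 5 were opposite coding sequence alone and none was opposite intron alone.

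A whole intron of the gene opposite lay inside 130 of the 235 loci, 21 of which covered 2 or more. On the strand of the lncRNA, 154 of these 159 introns begin with CT and end with AC, which is the reverse complement of the usual GT to AG intron ends of the gene. This count follows from the annotated introns of the genes and is no evidence on the transcripts. The loci are short, with a median exon length of 278 nt (lowest 97, highest 906), and 225 have a single exon. The midpoint of the lncRNA lay at a median of 40.1% of the way from the start of the gene to its end (quartiles 24% and 60.4%), and 146 of 234 midpoints were nearer the start. The labels name a strand-specific library kit, but the sources used here do not give whether the counting of reads used the strand. Without that, reads of unspliced RNA of the gene opposite and reads of the lncRNA cannot be told apart in any value below.

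**Figure D1:**
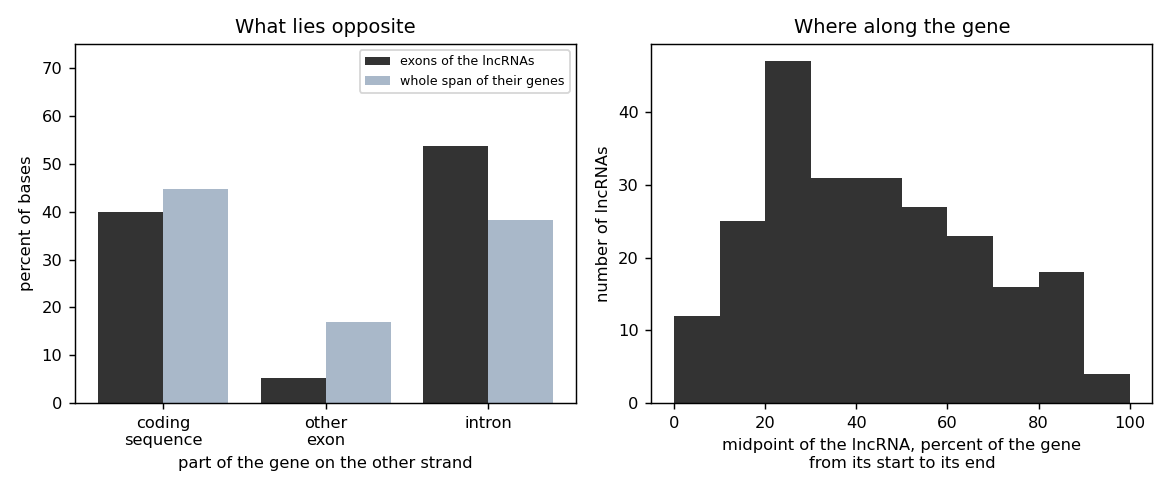
The left panel gives the percent of bases opposite coding sequence, other exon and intron for the exons of the lncRNAs (dark) and the same parts over the whole span of the genes opposite (light). The right panel counts lncRNAs by where their midpoint falls along the gene, from its start to its end; intron bases are 53.7% of the lncRNA exons against 38.2% of the gene spans.

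A few loci need care in reading. Exon bases are shared with a coding gene on the same strand by level2_lnc-70 (AT1G34317), level2_lnc-385 (AT3G60286) and level2_lnc-497 (AT5G02065). Another 3, level1_lnc-51, level1_lnc-195 and level2_lnc-107, share them with an annotated lncRNA gene on the same strand. A near-identical copy elsewhere in the genome was found for 5 loci, level2_lnc-392, level2_lnc-447, level2_lnc-586 and level2_lnc-619 with 2 copies each and level2_lnc-540 with 4, so their reads could have been split or shared. In 6 loci the exons are shorter than the 100 nt reads.

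Reads on these loci were few. Mapped reads were 25.2 M for the control and, at 3 h and 12 h, 26.1 M and 21 M for drought, 31.5 M and 17.6 M for salt, 37 M and 34.4 M for heat and 32.9 M and 31.8 M for cold, recovered from the steps of the deposited RPKM (reads per kilobase of exon and M mapped reads). Over the 9 libraries the 235 loci received 2664 reads. That is 1.89% of the 141057 reads on all 1362 loci, while the 235 are 17.3% of the loci. No read fell on 35 of them in any library, 58 were read in a single library, and 21 in 6 or more. The 10 with most reads held 30.8% of the reads of the class, and level1_lnc-319 alone held 13.6%.

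The control library held the fewest reads of the class. It had 34 reads on 14 of the 235 loci (5.96%, exact interval 3.29% to 9.79%), or 1.35 reads per M mapped reads (interval 0.935 to 1.89). Cold had 178 reads on 48 loci at 3 h and 531 on 92 at 12 h, or 5.41 and 16.7 per M. Heat had 217 on 46 and 392 on 92, or 5.86 and 11.4 per M. All 4 of these libraries were above the control, and in both stresses the 12 h library held more than the 3 h library. Over all 1362 loci, 20.9% were read in the control. Loci read in cold at 3 h and 12 h were 20.4% and 39.1% of the class, against 35.2% and 46.6% of all loci. In heat they were 19.6% and 39.1%, against 33.6% and 43.7%.

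Salt had 266 reads on 65 loci at 3 h and 296 on 78 at 12 h, or 8.44 and 16.8 per M. Drought had 191 on 48 loci at 3 h and 559 on 107 at 12 h, or 7.32 and 26.6 per M. Drought at 12 h was thus the highest of the 9 libraries, with an interval of 24.4 to 28.9 that lay above the intervals of the other 8. No stress library's interval reached that of the control. Loci read in salt were 27.7% and 33.2% of the class, against 38.0% and 43.3% of all 1362 loci. In drought they were 20.4% and 45.5%, against 36.5% and 48.2%. By share of loci read, the control was thus the lowest library and drought at 12 h the highest over all loci too. With level1_lnc-319 left out, the control held 26 reads, cold at 12 h 437 and drought at 12 h 510.

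**Figure D2:**
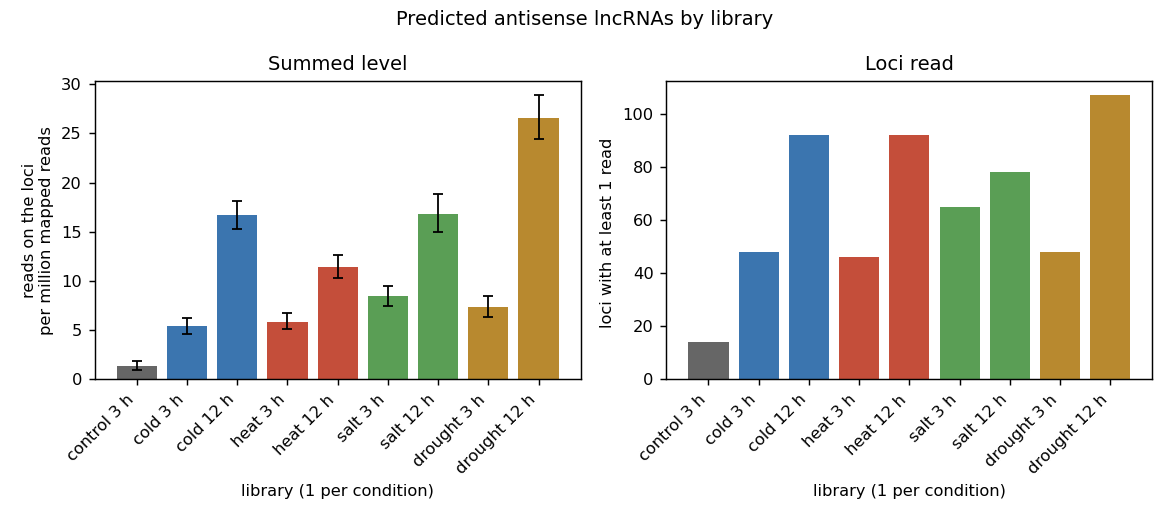
Bars give, for each of the 9 libraries, the reads on the 235 antisense loci per M mapped reads (left, with exact 95% Poisson intervals of the count) and the number of loci with at least 1 read (right). The control stands at 1.35 reads per M and 14 loci, drought at 12 h at 26.6 and 107.

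Set against the control library, the summed reads per M of the class were 4.01 to 19.7 times as high in the 8 stress libraries. Predicted cis loci were 2.14 to 5.89 times as high, predicted intergenic loci 1.05 to 2.52, predicted transposable element loci 0.559 to 2.42 and annotated antisense loci 0.912 to 2.08. All 1362 loci together were 0.775 to 1.65 times as high. The ratio of the predicted antisense class was the highest of the classes drawn in each of the 8 libraries, and the order of the other classes changed from library to library. The control value rests on 34 reads, so its counting interval spans a wide range, and no test of the difference between classes was possible. Whether the authors predicted the loci from these same libraries, 8 of them of stress, was not examined here. If they did, the choice of loci and their higher level under stress cannot be told apart.

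**Figure D3:**
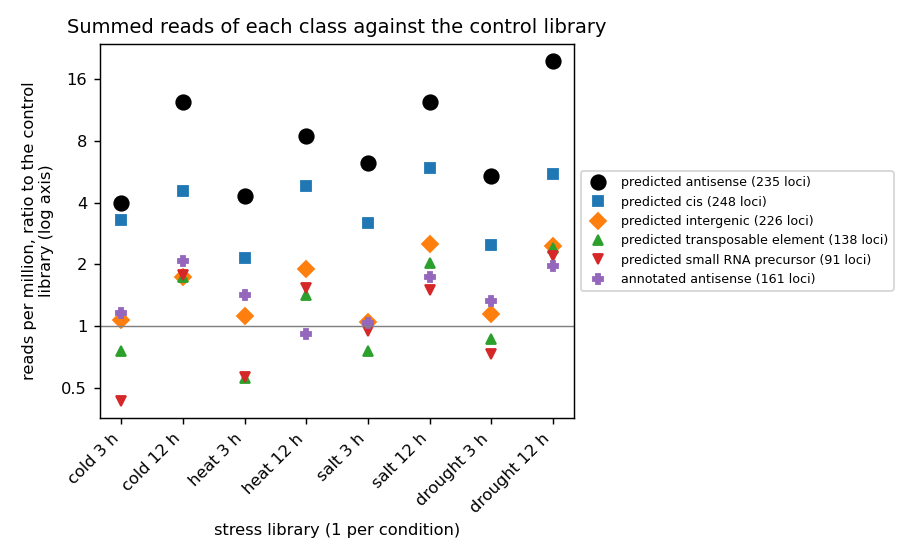
Each point is the summed reads per M of a class of loci in 1 stress library, divided by that of the control library, on a log axis. The predicted antisense loci (large circles) run from 4.01 in cold at 3 h to 19.7 in drought at 12 h and lie above the other 5 classes drawn in each library.

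A locus was called higher or lower where log2(RPKM + 1) differed from the control by at least 1, which is 2-fold on that scale. In the control 2 of the 235 loci reached 1 RPKM, against 55 of all 1362, so a lower call was hardly possible for the class. In drought at 12 h 24 of the 235 were called higher (background over all 1362 loci 9.4%), in salt at 12 h 12 (background 7.64%), in cold at 12 h 10 (background 5.73%) and in heat at 12 h 7 (background 4.92%). At 3 h the counts were 7 in salt (background 3.45%) and 4 each in cold (background 2.2%), heat (background 1.17%) and drought (background 3.23%). As shares of 235 these are 10.2% in drought at 12 h, 5.11% in salt at 12 h, 4.26% in cold at 12 h, 2.98% in heat at 12 h and in salt at 3 h, and 1.7% in the other three. They are close to or below the backgrounds except in heat at 3 h, where both shares are small. This depends on the pseudocount. With 0.1 RPKM in place of 1, 43.8% of the 235 were called higher in drought at 12 h against 34.8% of all loci, and 30.2% in heat at 12 h against 25.5%.

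The sole lower call of the class was level2_lnc-106 in cold at 3 h (1 of 235, background 1.47%). Its 7 reads of the control compare with 0 after 3 h of cold, and it lies opposite AT1G48550, a gene for a vacuolar protein sorting protein. No lower call was made in cold at 12 h (background 1.4%), heat at 3 h (background 1.32%) or 12 h (background 1.4%), salt at 3 h (background 2.06%) or 12 h (background 1.17%), or drought at 3 h (background 1.62%) or 12 h (background 1.32%), nor at 3 h (background 0.808%) or 12 h (background 0.881%) of all 4 stresses. Of the 235, 57 were higher in at least 1 of the 8 stress libraries, or 24.3% (background 22%), and 1 was lower (background 2.5%). Of those 57, 50 (87.7%) were higher in 1 stress, 6 (10.5%) in 2, none in 3 and 1 (1.75%) in all 4. Over the 300 loci of all classes called higher, 71% were so in 1 stress, 15.7% in 2, 8.67% in 3 and 4.67% in all 4. Some calls of the class rest on few reads. At 12 h, 11 higher calls in drought, 5 in salt, 2 in heat and 0 in cold had under 10 reads in both libraries. Whether low counts shape this split was not tested. The median difference on log2(RPKM + 1) was 0 in each of the 8 comparisons, for the class as for all loci. Just inside and outside the threshold in drought at 12 h stood level2_lnc-594 at 1.01 and level2_lnc-32 at 0.99.

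The libraries also differed by a common shift. Over 59 loci with at least 5 reads in every library, 1 of them in this class, the median log2 ratio to the control was 0.46 and 0.91 in drought at 3 h and 12 h, 0.14 and 0.75 in salt, 0.04 and 0.39 in heat, and 0.41 and 0.59 in cold. With RPKM rescaled by that shift, higher calls numbered 11 in drought at 12 h, 6 in salt at 12 h, 7 in cold at 12 h and 2 in heat at 12 h. The summed reads of the class were then 3.02 (cold at 3 h) to 10.5 times (drought at 12 h) those of the control, in place of 4.01 to 19.7. Rescaling applies the same factor to each class of a library, so the order of the classes is not touched. The background of the calls then was 4.55% in drought at 12 h, 4.11% in salt at 12 h, 3.82% in cold at 12 h and 3.74% in heat at 12 h.

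level1_lnc-319 was the most read locus of the class and 1 of 2 read in all 9 libraries. It lies opposite 85 coding and 218 intron bases of TDT (AT5G47560), the tonoplast dicarboxylate transporter that moves malate across the vacuolar membrane. Its reads after 3 h and 12 h were 57 and 49 in drought, 35 and 20 in salt, 41 and 35 in heat, and 24 and 94 in cold, and the control had 8. The control was the lowest of the 9 and cold at 12 h the highest. RPKM was 9.75 in cold at 12 h and 1.05 in the control, a ratio of 9.30 (interval 4.53 to 22.2). In drought the ratios to the control were 6.88 (3.26 to 16.7) at 3 h and 7.34 (3.45 to 17.9) at 12 h. Heat and salt gave ratios between 3.21 and 3.58 at both times, and cold at 3 h 2.30 (0.997 to 5.91), short of the 2-fold call.

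This locus was the sole one of the 235 called higher at 12 h of all 4 stresses (0.426%, background 1.03%). With rescaled libraries it was at 0.80 in heat at 12 h and 0.66 in salt at 12 h on log2(RPKM + 1), short of the call, so that none of the 235 was then higher at 12 h of all 4, against 0.587% of all loci. None was called higher at 3 h of all 4 (background 0.147%). The other locus read in every library, level2_lnc-151, lies opposite AT1G73890, a gene of the lipid-transfer protein family. It had 1 control read, 5 and 5 in drought, 3 and 2 in salt, 3 and 1 in heat, and 2 and 9 in cold, and was called in none of the 8 comparisons.

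**Figure D4:**
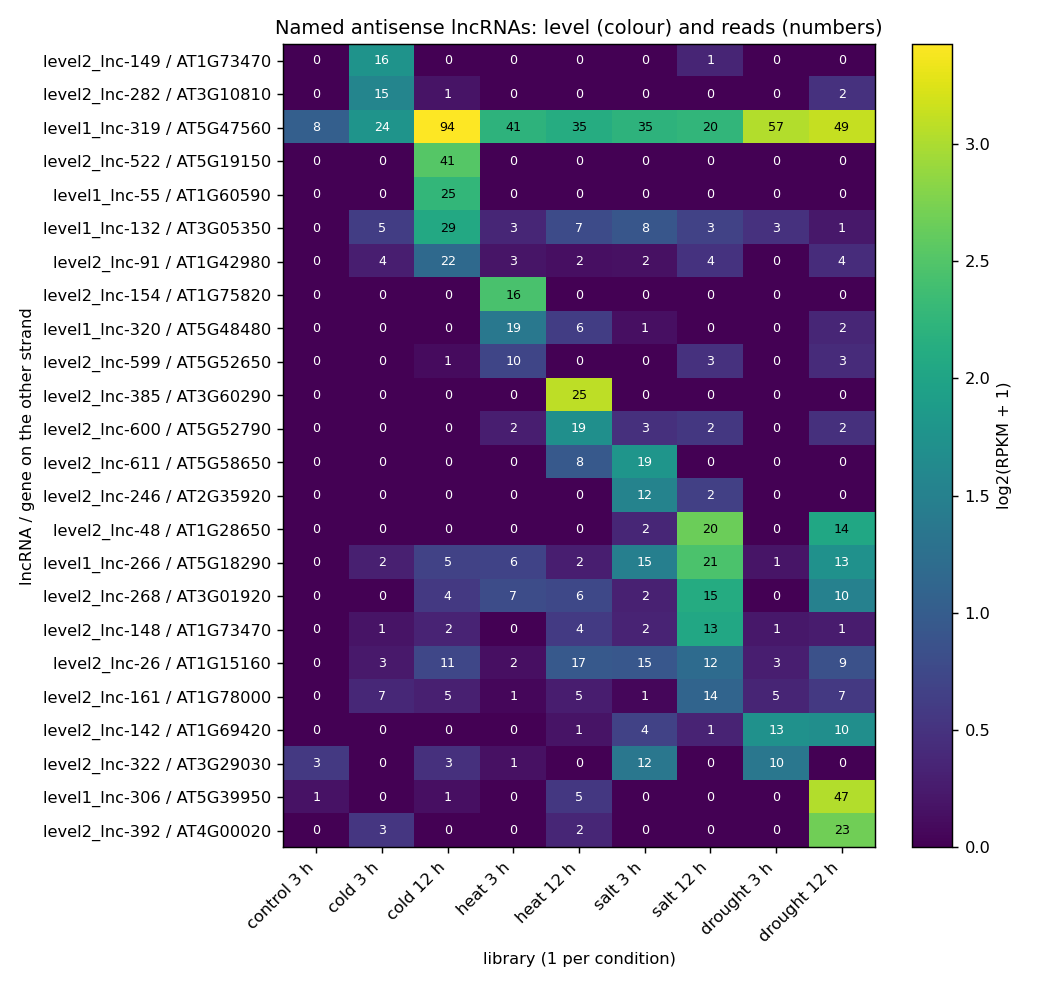
Each row is a named antisense lncRNA with at least 10 reads in a library, with the gene on the other strand, and each column a library. Colour gives log2(RPKM + 1) and the printed number the reads; apart from level1_lnc-319, no row has more than 3 reads in the control.

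In cold, the leading loci at 12 h were not the leading loci at 3 h. level2_lnc-522 had 41 reads in cold at 12 h and 0 in the other 8 libraries. That is 4.74 RPKM, at least 10.8-fold higher than the control when the control is set to the floor of 3 reads per library. level1_lnc-55 showed the same pattern, with 25 reads in cold at 12 h, 3.81 RPKM, and 0 in the other 8. Pectin lyase-like proteins, such as the one encoded opposite it, cut the pectin of cell walls.

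level1_lnc-132 was read more widely. It lies opposite AT3G05350, a metallopeptidase gene, and had 0 control reads, 3 and 1 in drought at 3 h and 12 h, 8 and 3 in salt, 3 and 7 in heat, and 5 and 29 in cold. Cold at 12 h stood highest, at least 7.65-fold higher than the control. level2_lnc-91, opposite the formin gene AT1G42980, had 0 control reads, 0 and 4 in drought, 2 and 4 in salt, 3 and 2 in heat, and 4 and 22 in cold. Formins nucleate actin filaments. Its level in cold at 12 h was at least 5.80-fold higher than the control, though after rescaling its difference of 0.88 on the log2 scale was short of the call.

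At 3 h of cold the leading loci were level2_lnc-149 and level2_lnc-282. level2_lnc-149 had 16 reads in cold at 3 h, 1 in salt at 12 h and 0 in the other 7 libraries. level2_lnc-282, opposite the RING finger gene AT3G10810, had 15 reads in cold at 3 h, 1 in cold at 12 h, 2 in drought at 12 h and 0 elsewhere. Both were thus high at 3 h and near 0 at 12 h. level2_lnc-149 was at least 5.15-fold lower at 12 h of cold than at 3 h. Over the class, 9 loci were higher at 12 h than at 3 h of cold (background 3.52%) and 4 were lower (background 1.03%). In the authors' deposited list of stress-responsive lncRNAs the pairs of cold values stand in reverse order to those of the other stresses (33 pairs in reverse and 0 in order), so the times of the cold libraries are known here by the headings of the expression table alone.

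In heat, 2 of the leading loci were very short. level2_lnc-154 had 16 reads in heat at 3 h, 4.45 RPKM, and 0 in the other 8 libraries. It lies opposite CLV1 (AT1G75820), the receptor kinase that limits the size of the shoot stem cell pool. level2_lnc-385 had 25 reads in heat at 12 h, and 0 in the other 8. It lies opposite AT3G60290, an oxygenase gene, and on the strand of AT3G60286, whose exons it shares. Both have 97 exon bases in 2 exons, all opposite coding sequence, so each is shorter than a read.

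level1_lnc-320 lies opposite AT5G48480, of the glyoxalase family, enzymes that detoxify methylglyoxal. It had 19 and 6 reads in heat at 3 h and 12 h, 1 in salt at 3 h, 2 in drought at 12 h and 0 elsewhere, and so was read mainly in heat. level2_lnc-600, opposite the CBS domain gene AT5G52790, had 2 and 19 reads in heat, 3 and 2 in salt, 2 in drought at 12 h and 0 elsewhere. In heat it was 10.2 times as high at 12 h as at 3 h (interval 2.47 to 90.7). Over the class, 6 loci were higher at 12 h than at 3 h of heat (background 4.26%) and 1, level2_lnc-154, was lower (background 0.367%). level2_lnc-402 is added after its values were seen, because it lies opposite SFR6, a subunit of the Mediator complex needed for cold acclimation. It had 1 read in cold at 12 h, 9 in heat at 12 h, 1 and 8 in salt at 3 h and 12 h, and 0 in the other 5 libraries.

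In salt, several of the leading loci at 12 h were also read in drought at 12 h. level2_lnc-48 had 2 and 20 reads in salt at 3 h and 12 h, 14 in drought at 12 h and 0 in the other 6 libraries. That was 5.31 RPKM in salt at 12 h and 3.11 in drought at 12 h. level1_lnc-266 had 0 control reads, 1 and 13 in drought, 15 and 21 in salt, 6 and 2 in heat, and 2 and 5 in cold. Its level in salt at 12 h, 4.49 RPKM, was at least 10.0-fold higher than the control. The gene opposite, SIP1;2, is named as a small intrinsic protein, and aquaporins carry water and small solutes across membranes.

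level2_lnc-268, opposite AT3G01920, had 0 control reads, 0 and 10 in drought, 2 and 15 in salt, 7 and 6 in heat, and 0 and 4 in cold. It too was highest in salt at 12 h, with drought at 12 h next, at 3.32 and 1.85 RPKM. These loci, with level2_lnc-232, are the 4 called higher in both salt and drought but in neither cold nor heat, or 1.7% of the class against 1.4% of all loci. After rescaling, level2_lnc-268 in drought at 12 h stood at 0.99 on the log2 scale, short of the call. The comparisons use the same control library. Over the class, 8 loci were higher at 12 h than at 3 h of salt (background 5.07%) and 4 were lower (background 0.954%).

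Among the named loci, level2_lnc-161, level2_lnc-611, level2_lnc-246, level2_lnc-26 and level2_lnc-148 were called higher than the control in salt alone. Of these, all but level2_lnc-246 were also read in other stresses. level2_lnc-161 and level2_lnc-160 both lie opposite SULTR1;2 (AT1G78000), a high-affinity sulfate transporter of the root. level2_lnc-161 had 0 control reads, 5 and 7 in drought, 1 and 14 in salt, 1 and 5 in heat, and 7 and 5 in cold. After rescaling, its differences of 0.75 against the control and 0.69 against 3 h, on the log2 scale, were short of the call in salt at 12 h. level2_lnc-160 had 5 reads in all. level2_lnc-611, opposite PSY1, which encodes a sulfated peptide that promotes cell expansion, had 8 reads in heat at 12 h, 19 in salt at 3 h and 0 elsewhere. It was at least 3.53-fold lower at 12 h of salt than at 3 h. level2_lnc-246, opposite the RNA helicase gene AT2G35920, had 12 reads in salt at 3 h, 2 in salt at 12 h and 0 elsewhere.

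level2_lnc-148 and level2_lnc-149 lie 1119 bases apart opposite the same gene, AT1G73470, which encodes an uncharacterized protein. While level2_lnc-149 was read almost wholly in cold at 3 h, level2_lnc-148 had 0 control reads, 1 and 1 in drought, 2 and 13 in salt, 0 and 4 in heat, and 1 and 2 in cold. The pair thus had different leading libraries. level2_lnc-25 and level2_lnc-26 lie opposite the neighbouring genes AT1G15150 and AT1G15160, which encode MATE transporters that export organic compounds. level2_lnc-26 had 0 control reads, 3 and 9 in drought, 15 and 12 in salt, 2 and 17 in heat, and 3 and 11 in cold. Its call in salt at 12 h was lost after rescaling, at 0.82 on the log2 scale. level2_lnc-25 had 1 control read, 0 and 2 in drought, 2 and 5 in salt, 0 and 2 in heat, and 7 and 4 in cold. Of the pair, level2_lnc-26 had more reads in all but the control and cold at 3 h.

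In drought, level1_lnc-306 and level2_lnc-392 led at 12 h. level1_lnc-306 lies opposite TRX2 (AT5G39950), a thioredoxin, a small protein that reduces disulfide bonds. It had 1 control read, 0 and 47 in drought, 0 and 0 in salt, 0 and 5 in heat, and 0 and 1 in cold. Drought at 12 h thus held nearly all of its reads, at 7.17 RPKM, 56.3 times the control by RPKM (interval 9.63 to 2271, since the control has 1 read). It was at least 19.5-fold higher at 12 h of drought than at 3 h. level2_lnc-392 had 3 reads in cold at 3 h, 2 in heat at 12 h, 23 in drought at 12 h and 0 elsewhere. Its 5.42 RPKM in drought at 12 h was at least 9.19-fold higher than the control, though it has 2 copies in the genome.

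level2_lnc-142 was read at both times of drought. It lies opposite AT1G69420, a DHHC-type gene, a family of enzymes that attach palmitate to proteins. It had 1 read in heat at 12 h, 4 and 1 in salt, 13 and 10 in drought and 0 elsewhere. level2_lnc-322, opposite the expansin gene EXPA5, had 3 control reads, 10 and 0 in drought, 12 and 0 in salt, 1 and 0 in heat, and 0 and 3 in cold. Expansins loosen cell walls. Its reads in salt and drought stood at 3 h and were 0 at 12 h, at least 2.23-fold lower in salt and at least 2.68-fold lower in drought, though it was called in none of the comparisons with the control. Over the class, 16 loci were higher at 12 h than at 3 h of drought (background 6.46%) and 2 were lower (background 0.881%).

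The genes opposite were grouped by words in their RefSeq product names into 10 lists, and 66 of the 235 loci fell into at least 1. The shares of the lists were near those among all 27444 coding genes for protein kinases (12 loci, 5.11% against 4.93%) and transcription factors (11, 4.68% against 5.15%). Transporters had 9 loci, or 3.83% against 2.36%, stress and hormone response 7, or 2.98% against 1.7%, and cell wall 7, or 2.98% against 1.33%. Below the share of coding genes were the F-box and ubiquitin list (9, 3.83% against 5.24%) and disease resistance (1, 0.426% against 1.08%). P450 and glycosyltransferase genes (6, 2.55% against 2.52%) and ribosome and translation genes (7, 2.98% against 2.42%) were near it. None lay opposite a gene of the photosynthesis list, which holds 0.554% of coding genes. Since the lists go by words, the kinase list also holds a sugar kinase and a homoserine kinase gene. The transcription factor list holds 3 DHHC-type genes, a HORMA gene, a RING finger gene and an acyltransferase gene. Glycosyl hydrolase genes and a COBRA-like gene are in the P450 and glycosyltransferase list, and a glutamyl-tRNA reductase gene is in the translation list. The shares are thus of word lists and not of gene families. The transporter list holds a gene named as a putative electron transporter. It misses the MATE transporter genes opposite level2_lnc-25 and level2_lnc-26 and the aquaporin-like gene opposite level1_lnc-266.

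Calls were spread over the lists. At least 1 higher call was made for 4 of 12 loci in the kinase list, 3 of 11 in transcription factors and 2 of 9 in transporters. It was made for 2 of 7 in cell wall and 2 of 6 in P450 and glycosyltransferase. The F-box and ubiquitin list had 1 of 9, ribosome and translation 1 of 7 and disease resistance 1 of 1. Not all of these lie opposite genes of the kind the list is named for. In the transcription factor list the called loci were level2_lnc-142 and level2_lnc-502, opposite DHHC-type genes, and level2_lnc-282, opposite a RING finger gene. level2_lnc-522 of the kinase list lies opposite the sugar kinase gene. level2_lnc-517 of the P450 and glycosyltransferase list, with 3 reads in all, lies opposite a COBRA-like gene. The disease resistance call was level2_lnc-19, opposite a gene named as a leucine-rich repeat protein. The share over the whole class was 24.3%. Of the 7 opposite stress and hormone response genes, none was called in any of the 8 comparisons. Among them are level2_lnc-208, opposite the cold-regulated membrane protein gene COR413-PM1, and level1_lnc-21, opposite its chloroplast relative COR413IM1. level2_lnc-208 had 2 reads in cold at 3 h, 2 in heat at 12 h, 1 and 4 in drought and 0 elsewhere. level1_lnc-21 had 1 read in cold at 12 h, 4 in heat at 12 h, 2 in salt at 12 h and 0 elsewhere. Neither had more than 4 reads in a library.

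The chromatin values are deposited intensity scores, 1 per locus, for histone H3, its modifications and DNA methylation in 3 sequence contexts. The sources used here give neither their unit nor the plants they came from, so they say nothing of stress. H3K4me3 and H3K9Ac are marks of the starts of active genes, H3K36me3 and H3K36me2 of transcribed bodies, H3K27me3 of Polycomb-repressed genes, and CpG methylation is common in the bodies of active plant genes. The antisense loci had a median H3K36me3 signal of 1.83, against 0.45 over the 722 predicted loci of other classes. For H3K36me2 the medians were 1.92 and 1.15, for H3K4me2 2.36 and 0.98, for H3K4me3 1.08 and 0.67, and for H3K9Ac 2.19 and 1.41. The authors' own yes or no calls did not follow these medians for every mark. H3K4me3 was called at 13.2% of the 235 and 18.6% of the 722, H3K9Ac at 11.9% and 16.9%, and H3K4me2 at 13.2% and 13.9%, while H3K36me3 was called at 23.4% and 14.4% and H3K36me2 at 19.1% and 3.74%. Medians of H3K27me3 were close, at 1.05 and 1.02, and H3K9me2 and H3K27me1, marks of silent chromatin, had a median of 0 in both sets. Their calls differed, with H3K9me2 at 0.851% of the 235 and 6.65% of the 722, and H3K27me1 at 1.28% and 6.09%. The 722 pool unlike classes, among them 138 transposable element and 91 small RNA precursor loci. Their 19 pseudogene loci had higher medians than the 235 for H3K36me3 (1.94), H3K36me2 (3.08), H3K4me2 (2.46), H3K4me3 (1.54) and H3K9Ac (3.02).

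The annotated antisense loci stood higher than the predicted ones for most marks, with medians of 5.34 for H3K4me3, 6.52 for H3K9Ac, 4.01 for H3K36me3 and 4.47 for H3K36me2. The authors called H3K4me3 at 68.9% of the annotated antisense loci. Predicted cis loci were called for H3K4me3 at 33.1%, although their median signal, 0.93, was below the 1.08 of the antisense loci.

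Among the 235, level and position went with different signals. The 51 level 1 loci had a median H3K4me3 of 5.44 and CpG of 2.38, and the 184 level 2 loci 0.91 and 17.7. The 146 loci with midpoints nearer the start of the gene opposite had a median H3K4me3 of 1.81, H3K36me3 of 2.72 and CpG of 6.09. The 88 nearer its end had 0.69, 1.06 and 38.8, and a higher H3K36me2 (2.99 against 1.55). The authors' CpG calls were made at 17.1% of the former and 47.7% of the latter. Spearman's rho of H3K4me3 with the position of the midpoint was -0.40 over 234 loci, and with CpG -0.43 and with H3K9Ac 0.64 over 235. These are descriptions over loci that sit inside genes, where the score of the lncRNA and that of the gene opposite cannot be told apart.

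**Figure D5:**
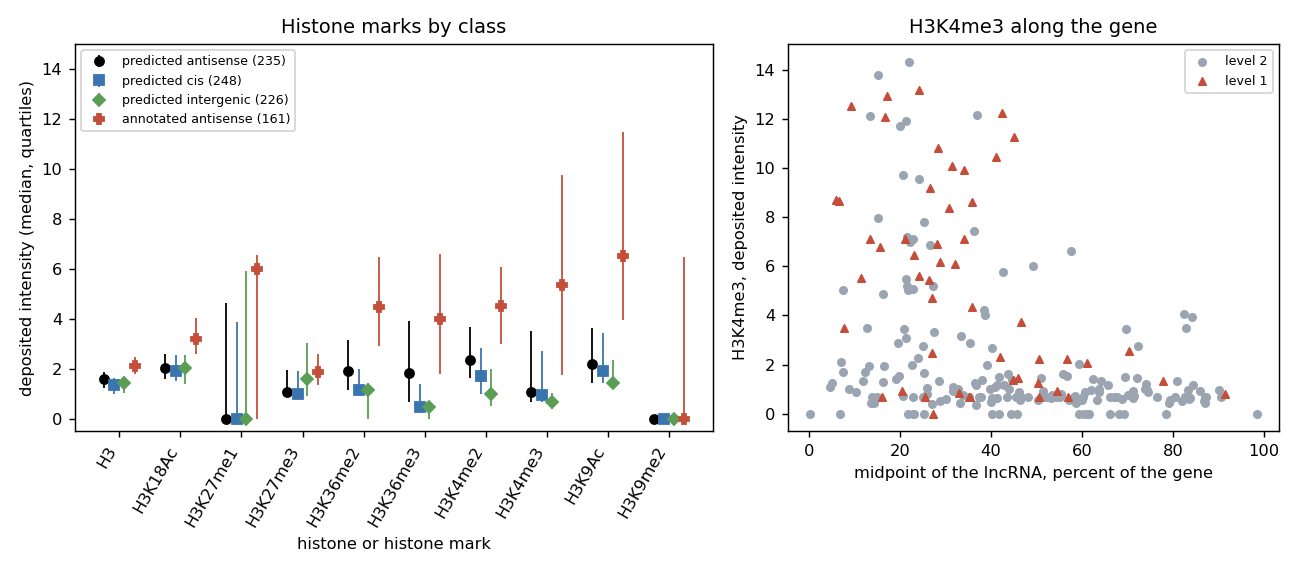
The left panel gives the median (symbol) and quartiles (line) of the deposited signal of each histone mark for 4 classes of loci, with the number of loci in the key. The right panel plots the H3K4me3 signal of each antisense locus against the position of its midpoint along the gene opposite, by level; level 1 loci have a median of 5.44 and level 2 loci of 0.91.

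Single loci marked the extremes. The highest H3K27me3 signal, 16.0, was at level2_lnc-40, opposite AT1G23660, a gene of unknown function, and this locus had no read in any library. level2_lnc-265, opposite the glutathione peroxidase gene GPX4, had the highest H3K27me1 (9.83) and likewise no read. The highest H3K4me3, 14.4, was at level2_lnc-599, opposite AT5G52650, whose product is annotated as RNA binding. It had 1 read in cold at 12 h, 10 in heat at 3 h, 3 in salt at 12 h, 3 in drought at 12 h and 0 elsewhere. level1_lnc-77, opposite the phospholipid N-methyltransferase gene PLMT, had the highest H3K36me3, 11.4. level1_lnc-176 had the highest H3K9Ac (15.6), level2_lnc-10 the highest H3K4me2 (7.92), level2_lnc-613 the highest H3K36me2 (8.72) and level2_lnc-394 the highest H3K9me2 (9.06).

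For DNA methylation, level2_lnc-447 had the highest CpG signal (300), and the gene opposite it is DMT2, a DNA methyltransferase. level2_lnc-540, with 4 genome copies, had the highest CHG (248) and CHH (444) signals, against class medians of 2.11 and 8.27. The highest H3 signal, 3.14, was at level2_lnc-392 and the highest H3K18Ac, 7.76, at level2_lnc-148, both described above among the stress comparisons.

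Loci with more reads carried more H3K4me3. The 85 with at least 10 reads in all had a median signal of 2.01, the 35 with none 0.90, and the authors called H3K4me3 at 18.8% and 0% of them. H3K27me3 calls went the other way, at 3.53% and 22.9%. Over the 235 loci, Spearman's rho of H3K4me3 with total reads was 0.23, a weak relation.

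Sequence conservation and structure were deposited as scores. The median blastn bit score was 159 for the 235 and 124 for the predicted loci of other classes. By class it was 172 for annotated antisense loci, 147 for predicted pseudogene, 131 for intergenic, 129 for cis, 116 for small RNA precursor and 100 for transposable element loci. Since nearly all of the 235 overlap a gene, conservation of the lncRNA and of the gene opposite cannot be told apart in this score. All 235 carry "YES" for conserved structure. The structure conservation index was above 0.5, the limit that the file header states, at 29 of them and above 0 at 54. The authors' randfold p-value, which compares the folding energy of a sequence with shuffled copies, was 0.05 or less at none.

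None of the 235 is in the authors' deposited list of stress-responsive predicted lncRNAs when matched by transcript identifier, and that list of 217 transcripts holds none of the antisense class. In that list 22 transcripts carry another level than in the expression table, so names alone do not match the tables. None is among the 145 lncRNAs of the authors' deposited table of co-expressed genes.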

How the data were processed

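The labels' protocols describe 100 nt single-end, strand-specific sequencing of seedling RNA without poly(A) tails. The authors deposited RPKM per locus for 9 libraries, as the file headers state. TopHat2 2.0.8, Bowtie 0.12.9 and Cufflinks, and the build TAIR10, are named in the submitters' processing notes, with no role given. Histone and DNA methylation values are deposited intensity scores of unstated scale, conservation is a deposited score (blastn bit score and structure conservation index), and folding stability is a randfold p-value by the authors. In the authors' list of responsive lncRNAs, other columns by stress were read only for the order of each pair. Another 20 columns of per-sample values were not used.

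Multiplied by exon length, the RPKM of a library are whole multiples of a common step, which gave the reads of each locus and the mapped reads of the library. All 2790 non-zero predicted values were whole within 0.02 reads. Of 1922 non-zero annotated values 79 were whole on their own row, and 1922 after the values were given to loci sorted by the digits that follow G in their identifiers, a choice made after seeing the data. Annotated values are used in backgrounds and class sums and not for single loci.

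A call is a difference of at least 1 in log2(RPKM + 1), over all 1362 loci. This scale understates the change of low loci. Ratios have exact binomial, sums exact Poisson and shares exact (Clopper-Pearson) 95% intervals, which cover counting error only; reads without molecular identifiers are not independent molecules. Folds against 0 reads are set against a floor of 3 reads per library. They give no counting error to the other count, so "at least" refers to the floor alone. Genes opposite were taken from the RefSeq annotation of TAIR10.1. Deposited starts count from 0: of 384 annotated loci, 218 starts equalled the annotation after 1 was added and none as deposited. Copies are blastn 2.17.0 matches of at least 90% identity over 80% of the length.

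Loci were named by rule: the 10 with most reads, the 2 largest calls each way per comparison with at least 10 reads, those called in all 4 stresses at a time, those read in all libraries and the highest value of each chromatin column. Loci added outside the rule were named as neighbours, list members or single calls after their values were seen. The loci and lists were chosen with earlier results of these data known. Alternatives were a pseudocount of 0.1 RPKM, rescaled libraries, read minimums, leaving out the most read locus, level 1 loci alone and loci with no coding gene on their own strand. Recovery and calling were tested on simulated data. Python 3.11.15, numpy 2.4.6, pandas 2.3.3, scipy 1.17.1 and matplotlib 3.10.9 were used.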

Additional observations from a re-analysis of the deposited data

Results flagged for a closer look

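level2_lnc-271, opposite the expansin gene EXPA13, moved in opposite directions with time in 2 stresses. On log2(RPKM + 1) it was higher at 12 h than at 3 h of drought by 1.21, and at 12 h of cold it was lower than at 3 h, a difference of -1.01. Its reads at 3 h and 12 h were 2 and 12 in drought, 0 and 2 in salt, 4 and 1 in heat, and 10 and 0 in cold, with 0 in the control. Each condition has 1 library, so the difference between the stresses was not tested. The direction in cold rests on the column names of the expression table.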

How the results depend on the processing

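With a pseudocount of 0.1 RPKM the counts of higher calls against the control became 42 and 103 in drought at 3 h and 12 h, 50 and 74 in salt, 30 and 71 in heat, and 38 and 71 in cold, and those of lower calls 7 and 6 in drought, 8 and 7 in salt, 8 and 5 in heat, and 10 and 5 in cold. Between 12 h and 3 h they became 88 higher and 15 lower in drought, 62 and 25 in salt, 62 and 18 in heat, and 67 and 21 in cold. With that pseudocount a single read can pass the threshold. The shares of higher calls in the class and over all loci were then 17.9% against 20% and 43.8% against 34.8% in drought, 21.3% against 20.7% and 31.5% against 30.6% in salt, 12.8% against 12.9% and 30.2% against 25.5% in heat, and 16.2% against 17.4% and 30.2% against 28.3% in cold. Between 12 h and 3 h they were 37.4% against 27.5% in drought, 26.4% against 23.7% in salt, 26.4% against 20.9% in heat and 28.5% against 21.2% in cold. For lower calls against the control the shares were 2.98% against 5.21% and 2.55% against 3.67% in drought, and 3.4% against 5.95% and 2.98% against 3.96% in salt. They were 3.4% against 5.8% and 2.13% against 4.77% in heat, and 4.26% against 5.29% and 2.13% against 3.82% in cold. Between times, lower calls were 6.38% against 7.86% in drought, 10.6% against 8.96% in salt, 7.66% against 6.31% in heat and 8.94% against 8.66% in cold. With rescaled libraries higher calls were 2 in heat at 12 h (background 3.74%) and 6 in salt at 12 h (background 4.11%). In drought they were 2 at 3 h (background 1.84%) and 11 at 12 h (background 4.55%). Between 12 h and 3 h, rescaling gave 2 higher in heat (background 3.01%) and 5 in salt (background 2.35%). In drought it gave 7 higher (background 2.72%) and 1 lower (background 1.03%). With at least 10 reads required in 1 of the libraries compared, higher calls were 4 in salt at 3 h, 7 in salt at 12 h, 2 in drought at 3 h and 13 in drought at 12 h, and none was lower in cold at 3 h (0, background 1.25%). As shares of the class and of all loci, those higher calls were 1.7% against 2.79%, 2.98% against 4.99%, 0.851% against 2.86% and 5.53% against 7.05%. Between times that minimum left 4 higher (background 3.16%) and 2 lower (background 0.734%) in salt and 1 lower in drought (background 0.587%). Loci with at least 5 reads numbered 2 in the control, 12 and 35 in drought, 14 and 14 in salt, 14 and 28 in heat, and 11 and 25 in cold. Rescaling took the summed RPKM of the class from 20.3 to 15.3 and from 55.4 to 36.9 in cold, from 44.8 to 34.1 in heat at 12 h, from 58.1 to 34.6 in salt at 12 h, and from 25.5 to 18.5 and 94.3 to 50.1 in drought, with 4.58 in the control. Without level1_lnc-319 it was 45.7 in cold at 12 h, 19.6 in heat at 3 h, 27.4 in salt at 3 h, and 18.3 and 86.6 in drought at 3 h and 12 h. With level 1 loci alone the chromatin medians were 1.40 for H3, 2.46 for H3K18Ac, 1.33 for H3K36me2, 2.72 for H3K36me3, 3.30 for H3K4me2, 5.44 for H3K4me3, 3.27 for H3K9Ac, 2.38 for CpG and 0 for CHG. The cause of these changes was not tested. Leaving out loci that share exons with a coding gene on their own strand kept all 22 values it touched within the limits used. Whether the class share of higher calls stood above or below that of all loci changed under some alternatives. With 0.1 RPKM it went from below to above at both times of salt and at 12 h of heat and cold. In heat at 12 h, for example, 2.98% against 4.92% became 30.2% against 25.5%. At 3 h of heat it went from above (1.7% against 1.17%) to just below (12.8% against 12.9%). In drought at 12 h, 10.2% against 9.4% became 5.53% against 7.05% with the minimum of 10 reads. No paired analysis was possible because each condition has 1 library and the labels carry no replicate numbers. Reads limit the class: in the control 2 loci reached 1 RPKM, so a lower level under stress was hardly detectable.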
